A study of Mus musculus with 6 samples.

Results

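The genes examined here encode the thick filament of the cardiac sarcomere and the proteins that hold or regulate it. They are the 10 genes *Myh6*, *Myh7*, *Myh7b*, *Myl2*, *Myl3*, *Mybpc3*, *Ttn*, *Myom1*, *Myom2*, and *Mylk3*, chosen by gene name and joined by gene identifier to the deposited counts. They make up 10 of the 56923 genes listed in the count data and 10 of the 17212 genes that passed the filter on low counts and were tested. The libraries were mRNA-Seq from 3 *Lztr1* R409C/+ mice, the group labelled mutant, and 3 WT mice (*Lztr1* +/+), all 12 weeks old, with 1 library per mouse and no drug treatment named for them. The labels give the genotype of the first group only as mutant, and the allele comes from the study's text. For sex, which the labels leave out, the study's text states that male mice were used to assess phenotypes. *Lztr1* encodes an adaptor that directs RAS proteins to degradation, and the R409C allele is a heterozygous knock-in made by CRISPR/Cas9 and carried in every cell of the mouse on a C57BL/6J background. The tissue is labelled heart, and the study's methods describe it as the LV of PBS-perfused mice. Values per mouse are listed throughout in the order of replicates 1, 2, and 3. The question of this comparison is whether myosin and thick filament transcripts differ in a mouse that the study describes as a model of Noonan syndrome with cardiac hypertrophy.

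The thick filament is a bundle of myosin molecules. Each molecule has a pair of heavy chains with motor heads, and each head carries an essential and a regulatory light chain. Myosin-binding protein C sits on the filament and tunes the heads, titin spans from the Z-disc to the center of the sarcomere and sets the filament's place, and myomesins link neighboring filaments at the M-band. The adult mouse ventricle uses mainly the fast α heavy chain from *Myh6*, whereas the slow β chain from *Myh7* dominates before birth and is known to rise again in many forms of pathological hypertrophy in rodents.

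Total counts lay between 66130887 and 72641124 per mouse, and levels are given as CPM, counts scaled to a common library size. On this scale 3 counts were worth 0.0317 to 0.0541 CPM, which limits detection by counting error alone. The share of mitochondrially encoded genes was 45.4% in *Lztr1* R409C/+ replicate 1, 13.8% in WT replicate 3, and between 29.7% and 37.3% in the other 4 mice. *Lztr1* itself was measured at 22.2 to 24.2 CPM in WT and 23.9 to 27.9 CPM in mutant mice, and a level cannot check a change of 1 codon. Of the 6 atrial markers, *Sln*, *Myl7*, and *Bmp10* reached at most 4, 19, and 4 counts in any library, and *Myl4* at most 54. However, *Tbx5* lay between 10.9 and 20.9 CPM and *Nppa* between 37.7 and 106.5 CPM. The ventricular marker *Irx4* lay between 13.6 and 25.2 CPM, and the ventricular marker *Hey2* between 1.93 and 4.11 CPM. The 8 cardiomyocyte markers summed to 23443 to 24582 CPM in WT and 20829 to 23256 CPM in mutant mice, which did not overlap. The groups overlapped for *Actc1* and *Pln*, the most abundant of the 8. Of the 8 markers, 6 had a log2 fold change below 0 and 2 above it (*Csrp3* at 0.30 and *Tnnt2* at 0.13). Beside this, 48.6% of all tested genes were below 0, and 68.7% of the nuclear genes with a mean of at least 100 CPM. The markers other than *Nkx2-5* reached that level. In edgeR, 0 of the 8 markers had an unadjusted or adjusted p under 0.05. *Csrp3* was higher in every mutant mouse, beside 8.3% of all tested genes and 3.7% of nuclear genes with a mean of at least 100 CPM. *Ryr2* (log2 fold change -0.33) was lower in every mutant mouse, beside 7.23% and 19.1% of these genes, respectively. The part of the difference in cardiomyocyte markers in the values that follow was not tested. In bulk tissue, a difference in the number of cardiomyocytes and one in RNA per cardiomyocyte cannot be told apart.

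None of the 10 genes passed the 0.05 threshold in edgeR's quasi-likelihood test after Benjamini-Hochberg adjustment over all genes tested (0 of 10), against 0.0407% of all tested genes (0.0349% higher and 0.00581% lower in mutant mice). At an unadjusted p under 0.05 the count was also 0 of 10 in edgeR, beside 8.63% of all genes (5.77% higher and 2.86% lower), and it was 2 of 10 in DESeq2 (*Ttn* and *Myom1*), beside 9.2% of all genes. In DESeq2, 0 of the 10 genes and 0.918% of all genes passed the adjusted threshold. The log2 fold change of *Lztr1* R409C/+ over WT was below 0 for 8 genes and above 0 for 2 genes, the light chains *Myl2* and *Myl3*. Its median over the 10 genes was -0.25, beside 0.012 over all genes tested, of which 48.6% were below 0. Among the 1027 nuclear genes with a mean of at least 100 CPM, a level that the members other than *Myh7b* reached, the median was -0.12 and 68.7% were below 0. The groups did not overlap for 1 gene, *Myom1*, which was lower in every mutant mouse, beside 7.23% of all tested genes that were lower in the same way. This share was 19.1% of the nuclear genes at 100 CPM or more and 25.1% of the 342 longest of them by all annotated exons, the classes that hold *Myom1*.

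**Figure D1:**
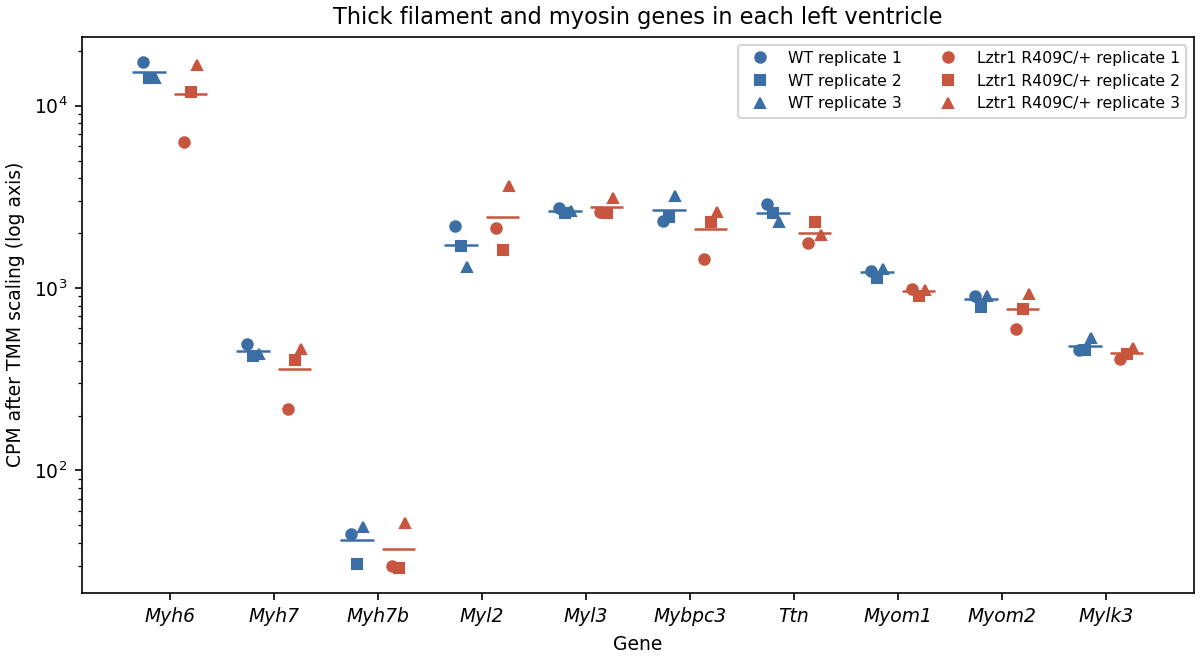
CPM after TMM scaling (log axis) of the 10 genes in each left ventricle, with WT mice in blue, *Lztr1* R409C/+ mice in red, a symbol for each replicate number, and a bar at each group mean (3 mice). The mutant points of *Myh6* spread from 6329.8 to 16622 CPM, whereas those of *Myom1* lie together below all WT points.

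*Myh6* (ENSMUSG00000040752.17, chr14:55179367-55205887 of GRCm39, minus strand, 39 exons in the canonical transcript), which encodes the α heavy chain, is the main motor of the adult mouse ventricle. The WT mice had 17348.5, 14162, and 14121 CPM and the mutant mice 6329.8, 11876, and 16622 CPM. Replicate 1 of the mutant group was lowest of all 6 mice, replicate 3 lay within the WT range, and the groups overlapped. The means were 15210.4 ± 1851.7 CPM (SD, n = 3) in WT and 11609 ± 5151.3 CPM (SD, n = 3) in mutant mice. The log2 fold change was -0.39 (SE 0.33, 95% interval -1.11 to 0.33, adjusted p in edgeR = 0.789). Without mutant replicate 1 it was -0.10, and without mutant replicate 3 it was -0.74.

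*Myh7* (ENSMUSG00000053093.17, chr14:55208141-55232084, minus strand, 41 exons), which encodes the β heavy chain, lies next to *Myh6* on the same strand. In WT mice it was measured at 492.8, 424.1, and 432.2 CPM and in mutant mice at 216.6, 404.8, and 463.4 CPM. As for *Myh6*, mutant replicate 1 was lowest, mutant replicate 3 fell inside the WT range, and the groups overlapped. Group means were 449.7 ± 37.6 and 361.6 ± 128.9 CPM (SD, n = 3 mice each), and edgeR estimated the log2 fold change as -0.31 (SE 0.24, 95% interval -0.84 to 0.21, adjusted p in edgeR = 0.759).

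*Myh6* and *Myh7* moved nearly in parallel across the 6 libraries. Pearson's r of their log2 CPM was 0.987 over 6 mice, a description without a test, since both values of a mouse come from the same library and its scaling. The part of reads shared between the genes in this r was not tested. To describe the pair, the sequence around the start site of each canonical transcript is shown. It runs from 250 bases before to 50 bases after the start in GRCm39, 5′ to 3′ on the genes' own strand. The window of *Myh6* is chr14:55204176-55204475 and that of *Myh7* is chr14:55232034-55232333, both on the minus strand. Capitals mark matches to an MCAT element (CATTCC, here read on the opposite strand as GGAATG) and to the MEF2 consensus.

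Myh6: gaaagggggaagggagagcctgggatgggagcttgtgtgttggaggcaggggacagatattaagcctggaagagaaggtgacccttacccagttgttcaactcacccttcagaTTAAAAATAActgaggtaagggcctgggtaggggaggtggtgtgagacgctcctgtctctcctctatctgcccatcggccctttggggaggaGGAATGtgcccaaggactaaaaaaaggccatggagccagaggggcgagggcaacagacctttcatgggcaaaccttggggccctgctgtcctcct

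Myh7: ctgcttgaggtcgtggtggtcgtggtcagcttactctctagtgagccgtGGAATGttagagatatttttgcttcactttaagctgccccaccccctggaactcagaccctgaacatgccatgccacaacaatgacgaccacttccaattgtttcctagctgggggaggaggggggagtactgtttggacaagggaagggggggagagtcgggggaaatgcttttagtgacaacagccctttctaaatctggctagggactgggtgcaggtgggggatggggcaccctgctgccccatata

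Both strands were searched for the MCAT letters, TATAAA, the MEF2 consensus, and the CArG box. MCAT matched at positions -45 to -40 in *Myh6* and -201 to -196 in *Myh7*, counted from the start site, and 14.0% of 21770 promoters of the same length held it. The MEF2 consensus, present in 2.96% of these promoters, matched at positions -137 to -128 in *Myh6* and did not overlap the MCAT match. In *Myh7* these letters were not found, nor were TATAAA (13.2% of promoters) or the CArG box (1.54%) in either window. Such matches describe the sequence and show no binding. Sequence outside these windows and other start sites was not searched, so letters not found here may lie beyond them.

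The isoform ratio of *Myh7* to *Myh6* addresses the switch from the α to the β chain and does not depend on how libraries are scaled. *Myh7* counts were 2.84%, 2.99%, and 3.06% of *Myh6* counts in the WT mice, whereas the mutant mice had 3.42%, 3.41%, and 2.79%. Mutant replicates 1 and 2 had the highest ratios of the 6 mice, whereas mutant replicate 3 had the lowest. On the log2 scale the ratio differed by 0.11 between the groups (exact permutation test, two-sided, p = 0.4, with 0.1 as the lowest p that this design can reach). Among the 7 ratios between genes of the group that were tested, the Benjamini-Hochberg adjusted p of this one was 0.7 (exact permutation test). Without mutant replicate 3 the difference was 0.20 and without mutant replicate 1 it was 0.057.

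As a share of all counts on *Myh6*, *Myh7*, and *Myh7b*, *Myh7* took 2.76% (95% Wilson interval 2.73% to 2.78%), 2.90% (2.87% to 2.94%), and 2.96% (2.93% to 2.99%) in the WT mice. The mutant mice gave 3.29% (3.24% to 3.35%), 3.29% (3.25% to 3.33%), and 2.70% (2.68% to 2.73%). The counting intervals rest on 12003 to 40938 *Myh7* counts per mouse. They cover counting error only, not the spread between mice or the assignment of shared reads. The intervals overlapped between mutant replicates 1 and 2, between WT replicates 2 and 3, and between mutant replicate 3 and WT replicate 1. Those of mutant replicate 3 and the other mutant mice did not overlap. The α chain gene kept 96.3% to 97.0% of the heavy chain counts in all 6 mice.

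**Figure D2:**
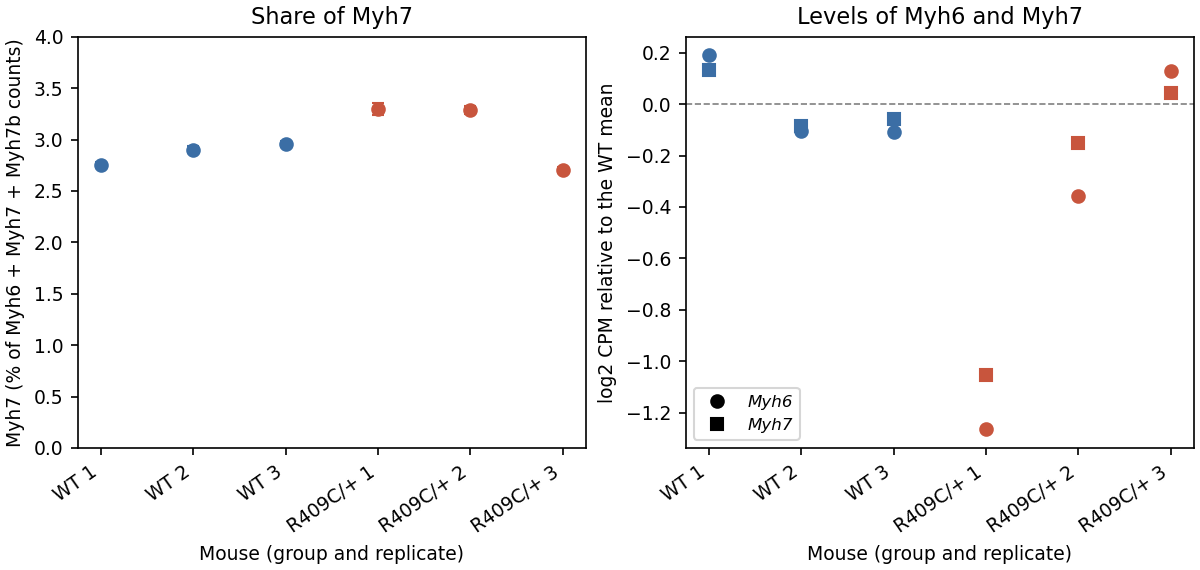
Left: share of *Myh7* in the counts on the 3 cardiac heavy chain genes (%), per mouse, with 95% Wilson intervals that are mostly smaller than the points. Right: log2 CPM of *Myh6* (circles) and *Myh7* (squares) relative to the WT mean. Shares lie between 2.70% and 3.29%, and both genes are more than 1 log2 unit below the WT mean in *Lztr1* R409C/+ replicate 1.

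How reads were divided between *Myh6* and *Myh7* bears on this ratio and on the parallel between their levels. Their coding sequences were identical at 91.8% of 5799 aligned bases, and 12.0% of all 100-base windows of the *Myh7* coding sequence also occur, letter for letter, in *Myh6*. The longest such stretch spans 245 bases, coding bases 4246 to 4490 of *Myh6* and 4240 to 4484 of *Myh7*, in the rod. It is printed because reads within it cannot be told apart between the genes. It has no capitals, since all 245 bases are shared.

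Myh6 and Myh7: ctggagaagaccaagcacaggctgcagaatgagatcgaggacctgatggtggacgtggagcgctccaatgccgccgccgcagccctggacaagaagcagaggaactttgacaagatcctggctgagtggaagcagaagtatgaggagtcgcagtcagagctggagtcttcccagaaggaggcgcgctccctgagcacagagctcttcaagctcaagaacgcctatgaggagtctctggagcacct

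The part of shared reads in the values of *Myh7* was not tested. The gene *Mhrt*, a cardiac long noncoding RNA, is transcribed in the opposite direction across 2462 exonic bases of *Myh7* (24.6% of the exonic bases annotated for the gene). Whether strand was used in counting is not given in the sources used here, so that reads of *Myh7* and *Mhrt* cannot be told apart with certainty. *Mhrt* had 51.3, 37.9, and 53.8 CPM in the WT mice and 42.1, 44.8, and 55.6 CPM in the mutant mice, with a log2 fold change of -0.0050 (adjusted p in edgeR = 0.995). Its values overlapped between the groups.

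*Myh7b* (ENSMUSG00000074652.4, chr2:155453096-155476234, plus strand, 42 exons) encodes a slow heavy chain of the same family that the heart makes in small amounts. The WT mice had 45.0, 30.6, and 48.9 CPM and the mutant mice 29.9, 29.3, and 51.8 CPM. The highest and the lowest values of all 6 mice were both in the mutant group, and the groups overlapped. Its log2 fold change in edgeR was -0.17 (SE 0.24, 95% interval -0.69 to 0.36, adjusted p in edgeR = 0.889). Its coding sequence was 73.1% identical to that of *Myh6* and 73.3% to that of *Myh7*, with no shared stretch longer than 33 bases. The ratio of *Myh7b* to *Myh6* was 0.0026, 0.0022, and 0.0035 in the WT mice and 0.0047, 0.0025, and 0.0031 in the mutant mice. The log2 ratios differed by 0.30 (exact permutation test, two-sided, p = 0.5, adjusted p = 0.7 over the 7 ratios). This difference was 0.046 without mutant replicate 1 and 0.51 without mutant replicate 2.

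Each of the 3 heavy chain genes hosts a microRNA in an intron, and these microRNAs are known to act on the balance of myosin genes. Their mature sequences from RefSeq are shown with the seed, bases 2 to 8, in capitals, since the seed sets the targets. All 3 matched RefSeq by name.

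mmu-miR-208a-3p (host *Myh6*): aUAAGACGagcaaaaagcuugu

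mmu-miR-208b-3p (host *Myh7*): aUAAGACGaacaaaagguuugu

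mmu-miR-499-5p (host *Myh7b*): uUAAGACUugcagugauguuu

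The microRNAs of *Myh6* and *Myh7* share the seed UAAGACG, and that of *Myh7b* has the seed UAAGACU. The libraries were not made from small RNA, so counts on these loci reflect precursor or intron sequence rather than the mature microRNA. *Mir208b* had 63 to 156 counts per library and means of 1.501 ± 0.466 and 1.62 ± 0.350 CPM in WT and mutant mice (SD, n = 3 mice each, log2 fold change 0.11, adjusted p in edgeR = 0.957). *Mir208a* had at most 8 counts in any library and *Mir499* had 0 in all of them, so that a difference was not detectable at this depth.

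The regulatory light chain of the ventricle is encoded by *Myl2* (ENSMUSG00000013936.13, chr5:122238848-122251545, plus strand, 7 exons), and its phosphorylation adjusts the force of contraction. The WT mice had 2184, 1691, and 1300.5 CPM of *Myl2* and the mutant mice 2139.5, 1612, and 3622 CPM. Mutant replicate 3 was the highest of the 6 mice, the other 2 mutant mice lay within the WT range, and the groups overlapped. The means were 1725 ± 442.7 and 2458 ± 1041.8 CPM (SD, n = 3 mice each), and the log2 fold change of 0.51 was the largest upward value among the 10 genes (SE 0.30, 95% interval -0.13 to 1.15, adjusted p in edgeR = 0.666). Without mutant replicate 3 it was 0.12.

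*Myl3* (ENSMUSG00000059741.14, chr9:110570929-110599396, plus strand, 7 exons) encodes the essential light chain of the ventricle. It was at 2745, 2577, and 2657 CPM in the WT mice, and the mutant mice had 2614, 2584, and 3116 CPM. Mutant replicate 3 was again highest, and the other 5 mice lay within a narrow range. The coefficient of variation in WT was 3.16%, the lowest of any of the 10 genes there. Between the groups the log2 fold change was 0.059 (SE 0.19, 95% interval -0.36 to 0.48, adjusted p in edgeR = 0.957), and its sign turned under 3 alternatives, to -0.087 with scaling by library size only, -0.098 after a correction for gene length, and -0.033 without mutant replicate 3.

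The ratio of *Myl2* to *Myl3* was 0.796, 0.656, and 0.489 in the WT mice, beside 0.818, 0.624, and 1.16 in the mutant mice. Only mutant replicate 3 had more counts on *Myl2* than on *Myl3*, and the groups overlapped. The log2 ratios differed by 0.41 (exact permutation test, two-sided, p = 0.4, adjusted p = 0.7 over the 7 ratios), and by 0.17 without mutant replicate 3, 0.22 without WT replicate 3, and 0.62 without mutant replicate 2.

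*Mybpc3* (ENSMUSG00000002100.16, chr2:90948489-90966861, plus strand, 34 exons) encodes cardiac myosin-binding protein C, which restrains the motor heads. The WT mice had 2333, 2459, and 3198.5 CPM and the mutant mice 1434, 2313, and 2606 CPM. Mutant replicate 1 was lowest and WT replicate 3 highest, the mice with the highest and the lowest share of mitochondrially encoded counts, respectively. The means were 2663 ± 467.8 and 2118 ± 609.9 CPM (SD, n = 3 mice each), and the log2 fold change was -0.33 (SE 0.25, 95% interval -0.87 to 0.21, adjusted p in edgeR = 0.755). With single mice left out, the log2 fold change ranged from -0.51 (without mutant replicate 3) to -0.12 (without mutant replicate 1), and it was -0.18 without WT replicate 3. Without mutant replicate 1 and WT replicate 3 together, an alternative added after the values were seen, it was 0.038.

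Relative to the sum of *Myh6* and *Myh7*, *Mybpc3* counts gave ratios of 0.131, 0.169, and 0.220 in the WT mice, beside 0.219, 0.188, and 0.153 in the mutant mice. The mutant ratios lay within the WT range, and the log2 difference was 0.13 (exact permutation test, two-sided, p = 0.8, adjusted p = 0.8 over the 7 ratios).

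*Ttn* (ENSMUSG00000051747.16, chr2:76534136-76812891, minus strand), the gene of the giant spring protein titin, has 347 exons and a canonical transcript of 107543 bases. In WT mice it was measured at 2871, 2593, and 2299 CPM and in mutant mice at 1769, 2313, and 1952 CPM. Mutant replicates 1 and 3 were below all WT mice, and mutant replicate 2 exceeded WT replicate 3 only slightly. Means were 2588 ± 286.1 and 2011 ± 276.7 CPM (SD, n = 3 mice each), with a log2 fold change of -0.36 (SE 0.20, 95% interval -0.80 to 0.073, adjusted p in edgeR = 0.648). With scaling by library size only, the groups did not overlap for *Ttn*, beside 4.75% of all tested genes that were lower without overlap under that scaling.

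The ratio of *Ttn* to *Myh6* varied more among mutant than among WT mice, with 0.166, 0.183, and 0.163 in the WT mice and 0.279, 0.195, and 0.117 in the mutant mice. Mutant mice held both the highest and the lowest of the 6 ratios. The mean log2 ratio differed by 0.12 (exact permutation test, two-sided, p = 0.7, adjusted p = 0.8 over the 7 ratios) and turned to -0.17 without mutant replicate 1.

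*Myom1* (ENSMUSG00000024049.16, chr17:71309628-71434802, plus strand, 38 exons) encodes myomesin 1, which bridges thick filaments at the M-band. The WT mice had 1246, 1131, and 1275 CPM and the mutant mice 990.9, 909.9, and 979.1 CPM. All 3 mutant mice were below all 3 WT mice, and the mutant values lay close together. The means were 1217 ± 76.2 and 959.97 ± 43.8 CPM (SD, n = 3 mice each). In edgeR's quasi-likelihood test the log2 fold change was -0.34 (SE 0.17, 95% interval -0.71 to 0.021, unadjusted p = 0.0624, adjusted p = 0.599). It stayed between -0.40 and -0.31 when each mouse was left out in turn, the narrowest such range among the 8 genes below 0. The separation held with TMM, DESeq2, and upper quartile scaling. With library size only, however, the lowest WT value was 1023 and the highest mutant value 1074 CPM, so that the groups overlapped.

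*Myom2* (ENSMUSG00000031461.5, chr8:15107272-15183541, plus strand, 37 exons) encodes myomesin 2, the M-protein of fast and adult cardiac muscle. Values of 909.4, 788.1, and 908.4 CPM in the WT mice overlapped with 597.7, 768.1, and 932.0 CPM in the mutant mice, with the lowest and the highest in the mutant group. The log2 fold change was -0.18 (SE 0.19, 95% interval -0.60 to 0.24, adjusted p in edgeR = 0.834). The ratio of *Myom2* to *Myom1* was 0.730, 0.697, and 0.713 in the WT mice, beside 0.603, 0.844, and 0.952 in the mutant mice. WT ratios were thus within a narrow band that the mutant ratios surrounded, and the log2 difference was 0.14 (exact permutation test, two-sided, p = 0.5, adjusted p = 0.7 over the 7 ratios). Without mutant replicate 3 the log2 fold change of *Myom2* was -0.35 and the difference of the log2 ratio 0.0010, and without mutant replicate 1 they were -0.039 and 0.33.

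*Mylk3* (ENSMUSG00000031698.15, chr8:86049783-86112974, minus strand, 12 exons) encodes the cardiac myosin light chain kinase, which phosphorylates the regulatory light chain. The WT mice had 456.8, 456.4, and 530.9 CPM, whereas 408.7, 434.7, and 471.5 CPM were measured in the mutant mice. Mutant replicates 1 and 2 were below all WT mice and mutant replicate 3 was within their range. The log2 fold change was -0.14 (SE 0.16, 95% interval -0.48 to 0.21, adjusted p in edgeR = 0.852), and without WT replicate 3 it was -0.061. Per count of its substrate *Myl2*, the kinase gene gave ratios of 0.209, 0.270, and 0.408 in the WT mice, beside 0.191, 0.270, and 0.130 in the mutant mice, an overlap with the lowest 2 values in the mutant group. The log2 difference of -0.59 was the largest of the 7 ratios in size (exact permutation test, two-sided, p = 0.2, adjusted p = 0.7). In size, it was smallest without mutant replicate 3, at -0.33.

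**Figure D3:**
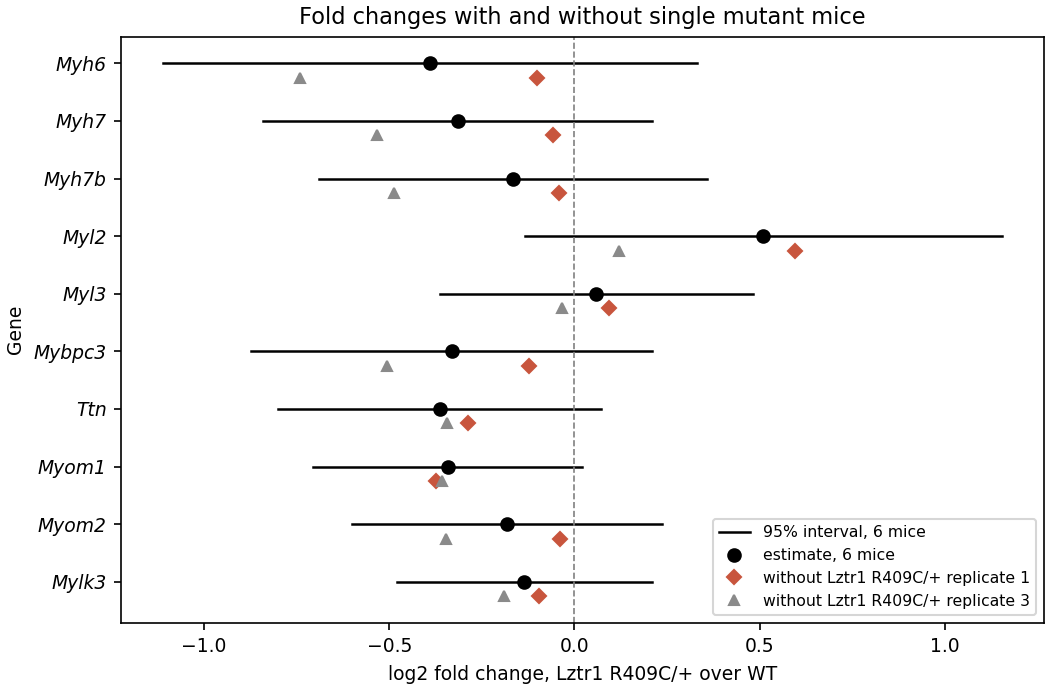
Log2 fold change of *Lztr1* R409C/+ over WT for the 10 genes, with the estimate and 95% interval from all 6 mice in black and the estimate without mutant replicate 1 (red diamonds) or mutant replicate 3 (gray triangles). All intervals include 0, and the 3 heavy chain genes lie between -0.10 and -0.041 without replicate 1 and between -0.74 and -0.49 without replicate 3.

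Levels can be compared between genes only per length of transcript, here as CPM per kilobase of the canonical transcript. In WT mice the order of levels was *Myl3* (2823 ± 89.3 CPM per kilobase, SD, n = 3), *Myh6* (2436 ± 296.6), *Myl2* (2083 ± 534.7), *Mybpc3* (643.3 ± 113.0), *Myom1* (213.4 ± 13.4), *Mylk3* (180.6 ± 16.1), *Myom2* (159.2 ± 12.8), *Myh7* (73.3 ± 6.12), *Ttn* (24.1 ± 2.66), and *Myh7b* (6.69 ± 1.55). The values of *Myl3* and *Myh6*, of *Myh6* and *Myl2*, and of *Myom1* and *Mylk3* overlapped among the WT mice, and no other neighbors in this order did. The length is a choice, since with all annotated exons of a gene in place of the canonical transcript, the order began with *Myh6* at 1525, *Myl3* at 873.4, and *Mybpc3* at 639.7 CPM per kilobase. *Myh7*, *Ttn*, and *Myh7b* were the lowest 3 genes with both lengths. In *Lztr1* R409C/+ mice the means were 2968 ± 1258 CPM per kilobase for *Myl2* and 2942 ± 317.5 CPM per kilobase for *Myl3*, ahead of *Myh6* at 1859 ± 825.0 (SD, n = 3 for each). The values of *Myl2* overlapped with those of both other genes, and *Myl2* exceeded *Myl3* in mutant replicate 3 but in neither of the other mutant mice.

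The mutant mice differed from each other over the 10 genes as a group. In mutant replicate 1, 9 of the 10 genes were below the WT mean, with a median log2 difference of -0.51. In mutant replicate 2 all 10 were below it, with a median of -0.17. In mutant replicate 3, 4 genes were below it and the median was 0.072. Among the WT mice, 2 genes were below it in replicate 1 (median 0.092), 9 in replicate 2 (median -0.094), and 5 in replicate 3 (median 0.032). The 10 genes together took 2.42% of all counts outside mitochondrially encoded genes in mutant replicate 1, 3.52% and 4.80% in mutant replicates 2 and 3, and 4.44%, 3.79%, and 4.32% in the WT mice. Mutant replicate 1 therefore had the lowest share also when mitochondrially encoded counts were left out. With these genes removed before scaling and testing, the median log2 fold change of the 10 genes was -0.25, as with all genes. With all genes kept and mutant replicate 1 left out, it was -0.077.

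Transcript length moved with part of these differences. The light chains, with the shortest transcripts (828 bases for *Myl2* and 942 bases for *Myl3*), were the genes above 0. *Mybpc3*, at 4140 bases also among the shorter genes, was at -0.89 in mutant replicate 1, and *Ttn*, the longest, was less far below the WT mean there (-0.55) than *Myh6* (-1.26). *Myl2* was the only gene above the WT mean in mutant replicate 1 (log2 difference 0.31). *Myl2* also had the largest upward difference in mutant replicate 3 (1.07), where *Ttn* and *Myom1* were lowest (-0.41 and -0.31). Over nuclear genes with a mean of at least 100 CPM, the 342 longest had a log2 fold change of -0.19 in the median and 85.1% were below 0, whereas the 343 shortest had a median of 0.033 and 46.1% were below 0. Relative to the WT mean, medians of the longest genes were -0.27, -0.11, and -0.23 in the mutant mice, and those of the shortest genes 0.024, -0.048, and 0.063. In the WT mice the medians of both sets of genes lay between -0.029 and 0.029. Their own mean is the reference, which holds these medians near 0, so they are no measure of a length effect among WT mice. For these sets and for the correction that follows, gene length covers all annotated exons (16041 bases for *Myom1*), not the canonical transcript (5703 bases). After a loess correction for gene length, the median of the 10 genes was -0.21 and 9 of them were below 0. *Ttn* moved from -0.36 to -0.18, *Myom1* from -0.34 to -0.26, and *Myom2* from -0.18 to -0.085, toward 0, as did *Myh6*, *Myh7*, and *Myl2*. *Mybpc3* moved away from 0, from -0.33 to -0.45, as did *Mylk3* (-0.14 to -0.20) and *Myh7b* (-0.17 to -0.21), and *Myl3* crossed it, from 0.059 to -0.098. Beyond this correction, the part of length in the values was not tested.

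**Figure D4:**
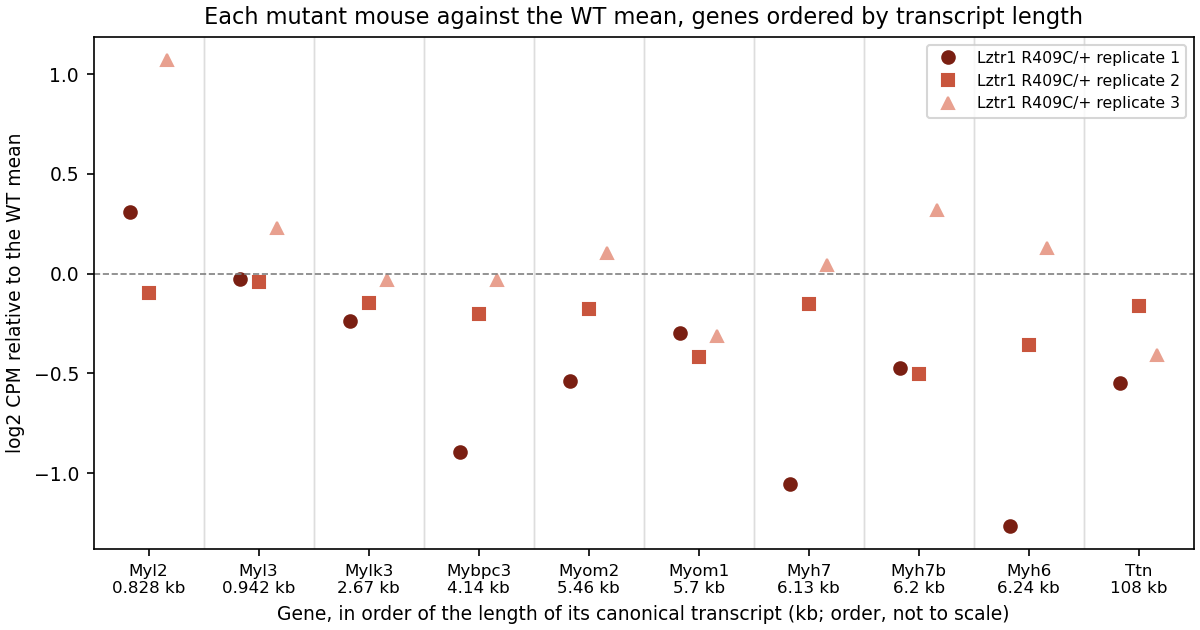
Log2 CPM of each *Lztr1* R409C/+ mouse relative to the WT mean, with the 10 genes ordered by canonical transcript length, 0.828 kb for *Myl2* to 107.543 kb for *Ttn* (positions show the order only). *Myh6*, *Myh7*, and *Mybpc3* are lowest in replicate 1, *Myl2* is highest in replicate 3, and *Myom1* is below 0 in all 3 mice.

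The 10 genes did not form a single block across the 6 mice. Besides *Myh6* with *Myh7*, the pairs *Myh6* with *Myom2* (r = 0.958), *Myh7* with *Myom2* (r = 0.941), and *Mybpc3* with *Mylk3* (r = 0.909) were most alike in log2 CPM. *Myl2* with *Myom1* (r = -0.38) and with *Ttn* (r = -0.37) were least alike. Across 8433 genes with a mean log2 CPM of at least 3, the most similar to *Myh6* were *Kdm4b* (r = 0.999), *Mthfd1* (r = 0.998), *Arhgef10l*, *Hk2*, and *Pcnt* (each r = 0.990). For *Myh7* they were *Trrap* (r = 0.995), *Igf2r* (r = 0.993), *Ddb1* (r = 0.992), *Mthfd1* (r = 0.991), and *Txnrd2* (r = 0.989). *Myh7* ranked 7th for *Myh6* and *Myh6* ranked 10th for *Myh7*, and 253 and 260 genes exceeded an r of 0.9 with *Myh6* and *Myh7*, respectively. These are descriptions over 6 mice whose values share a library and its scaling.

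Most other myosin chains of striated muscle did not pass the filter on low counts. Of 11 genes for atrial, fetal, and skeletal muscle myosin chains, 3 passed it, *Myl1*, *Myl4*, and *Mylpf*, and the other 8 had at most 19 counts in any library. The embryonic chain *Myh3* had at most 1 count, the perinatal chain *Myh8* had 0 in all 6 mice, and the atrial light chain *Myl7* had at most 19. *Myl1*, a light chain of fast skeletal muscle, was measured at 11.6 ± 2.13 CPM in WT and 15.6 ± 2.40 CPM in mutant mice (SD, n = 3 mice each, log2 fold change 0.43, adjusted p in edgeR = 0.568). *Myl4*, the atrial essential light chain, was at 0.471 ± 0.107 and 0.491 ± 0.00492 CPM, and *Mylpf* had a log2 fold change of 1.37 from 6 to 39 counts per library (adjusted p in edgeR = 0.664). None of the 3 passed the threshold. All 3 were above 0, with a median log2 fold change of 0.43. *Myl1* had an unadjusted p under 0.05 in edgeR, 1 of 3 genes, beside 8.63% of all genes.

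Among 14 further proteins of the thick filament and M-band, 11 were tested, 3 were above 0 and 8 below, the median log2 fold change was -0.16, and 0 passed the adjusted threshold in edgeR (1 of 11 had an unadjusted p under 0.05, beside 8.63% of all genes). That gene was *Trim63*, whose product MuRF1 is a ubiquitin ligase at the M-band. Its 143.8, 127.9, and 176.3 CPM in the WT mice exceeded the 88.4, 104.1, and 114.9 CPM in the mutant mice, so that the groups did not overlap, with a log2 fold change of -0.54 (SE 0.17, adjusted p in edgeR = 0.410). *Cmya5*, a large M-band and costamere protein, also did not overlap (605.4 ± 57.9 and 490.6 ± 32.0 CPM, SD, n = 3 mice each), and these 2 genes compare with the 7.23% of all tested genes and 19.1% of nuclear genes at 100 CPM or more that were lower without overlap. *Myom3*, another myomesin gene, was low at 0.912 ± 0.144 and 1.55 ± 0.448 CPM (log2 fold change 0.76, adjusted p in edgeR = 0.593). *Fhl2*, an abundant gene of this list, had a log2 fold change of 0.14.

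Of 11 genes for myosin folding and light chain phosphorylation, 10 were tested, 2 were above 0 and 8 below, with a median log2 fold change of -0.20. None passed the adjusted threshold in edgeR (0 of 10), and 2 had an unadjusted p under 0.05, beside 8.63% of all genes. These were *Hsp90aa1*, a chaperone, at 180.7 ± 55.5 and 115.3 ± 16.6 CPM, and its partner *Unc45b*, which folds the myosin head, at 178.8 ± 25.9 and 134.5 ± 22.6 CPM (SD, n = 3 mice each). The log2 fold changes were -0.65 and -0.41 (adjusted p in edgeR = 0.436 and 0.561). In 4 of the 10 genes, these together with *Ppp1r12a* and *Ppp1r12b* (targeting subunits of myosin phosphatase), the mutant mice were all below the WT mice, beside 7.23% of all tested genes and 19.1% of nuclear genes at 100 CPM or more. *Ppp1r12a*, with means of 58.1 CPM in WT and 50.5 CPM in mutant mice, lies below that level. The list's most abundant genes were *Ppp1cb*, the phosphatase's catalytic subunit (log2 fold change -0.43), and the methyltransferase gene *Smyd1* (-0.078).

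The non-muscle and smooth muscle myosin genes come from the other cells of the ventricle as well as from cardiomyocytes. All 8 were tested, 6 were above 0 and 2 below, with a median log2 fold change of 0.11, and 0 passed the adjusted threshold in edgeR. *Myh11*, the heavy chain of smooth muscle, was at 12.5, 11.6, and 11.8 CPM in the WT mice, without overlap with 4.96, 7.20, and 9.87 CPM in the mutant mice, and its log2 fold change was -0.71 (SE 0.23, adjusted p in edgeR = 0.438). *Myl6* had a log2 fold change of 0.49 (adjusted p in edgeR = 0.564), and the most abundant of these genes, *Myl12a* and the non-muscle heavy chain *Myh9*, had 0.0066 and 0.23. The 4 smooth muscle markers, which include *Myh11*, summed to 74.5 to 78.9 CPM in WT and 46.6 to 80.4 CPM in mutant mice. Among them *Myh11* and *Tagln* were lower in every mutant mouse, 2 of 4 beside 7.23% of all tested genes, whereas the groups overlapped for *Acta2*, the most abundant (log2 fold change -0.13), and *Cnn1* (0.33). *Tagln* was measured at low levels (5.13 ± 0.747 and 3.27 ± 0.407 CPM, SD, n = 3 mice each, log2 fold change -0.65, adjusted p in edgeR = 0.470), and the part of smooth muscle content in the value of *Myh11* was not tested.

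Thin filament genes, which encode the actin-based tracks that myosin pulls, were compared because they share the cardiomyocyte but not the filament. Of 12 genes, 2 were above 0 and 10 below, the median log2 fold change was -0.16, and 0 passed the adjusted threshold in edgeR. The groups did not overlap for *Nebl* (log2 fold change -0.27), 1 of 12 genes, beside 7.23% of all tested genes and 19.1% of nuclear genes at 100 CPM or more that were lower without overlap. *Acta1*, the skeletal α-actin that is re-expressed in hypertrophy, was at 182.9, 315.1, and 316.9 CPM in the WT mice and 181.3, 165.4, and 198.4 CPM in the mutant mice, with a log2 fold change of -0.58 (unadjusted p = 0.0172, adjusted p = 0.483 in edgeR). *Actc1* and *Tpm1*, the most abundant of the list, had log2 fold changes of -0.19 and -0.074. Whether the thick and thin filament lists differ from each other was not tested.

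Genes of the fetal program, to which *Myh7* belongs in rodents, are known to mark hypertrophy. Of 6 genes, *Nppa* was above 0 (54.5 ± 19.6 and 78.6 ± 26.9 CPM, SD, n = 3 mice each, log2 fold change 0.53, adjusted p in edgeR = 0.643) and the other 5 were below 0. They comprise *Nppb* (-0.21), *Ankrd1* (-0.0063), *Rcan1* (-0.090), *Acta1*, and the calcium pump gene *Atp2a2*, which is listed with them but is known to fall in heart failure. The count of signs over this list therefore has no single meaning. *Atp2a2* was at 13814.5, 14294, and 14799.7 CPM in the WT mice and at 8719.5, 11626, and 10812 CPM in the mutant mice, all of which were lower (log2 fold change -0.46, SE 0.24, adjusted p in edgeR = 0.630), beside 19.1% of nuclear genes at 100 CPM or more that were lower without overlap.

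Markers of other cells were compared in the same way. All 4 macrophage markers had higher CPM in every mutant mouse than in every WT mouse, although 0 of 4 passed the adjusted threshold in edgeR (4 had an unadjusted p under 0.05, beside 5.77% of all genes that were higher at that level), with sums of 61.2 to 63.0 CPM in WT and 98.5 to 121.5 CPM in mutant mice, beside 8.3% of all tested genes that were higher without overlap. Sums overlapped for fibroblast markers (711.5 to 935.0 CPM in WT, 735.3 to 946.4 CPM in mutant mice), endothelial markers (415.4 to 611.1 and 366.7 to 616.6 CPM), and erythroid markers (578.8 to 1479 and 1042 to 2625 CPM). Within these sums, all 5 erythroid markers were above 0 with a median log2 fold change of 0.97 (3 at an unadjusted p under 0.05 in edgeR, beside 5.77% of all genes that were higher at that level, and 0 after adjustment), and of the 5 fibroblast markers *Lum* was higher in every mutant mouse (log2 fold change 0.61, adjusted p in edgeR = 0.305), whereas the groups overlapped for *Col1a1* (-0.25), *Col3a1* (-0.030), *Pdgfra* (0.12), and *Dcn* (0.16). Of the 8 skeletal muscle markers, *Ckm*, which the heart shares, held nearly all of the sum. The 5 that passed the filter were all above 0, with a median log2 fold change of 1.09, and 0 had an unadjusted or adjusted p under 0.05 in edgeR. Besides *Ckm* (0.18) they were *Tnnt3* (2.0), *Mylpf* (1.37), *Atp2a1* (1.09), and *Tnni2* (0.89), with at most 72 counts in any library and overlap between the groups. The part of such differences in cell content in the levels of the thick filament genes was not tested.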

How the data were processed

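mRNA-Seq libraries of 3 *Lztr1* R409C/+ and 3 WT mice were used, grouped by the deposited sample titles. The authors trimmed reads with Trim Galore, aligned them to GRCm39 with HISAT2, left out rRNA, and summarized genes with StringTie, per the study's methods and processing notes. They deposited whole-number counts per gene, not normalized. The annotation release, the step from StringTie to counts, the use of strand, and sequencing batches are not given in the sources used here. A deposited table of the authors' own edgeR comparison (log2 fold changes, log2 CPM, p-values, adjusted p-values) served for gene names only.

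Counts were analyzed in R 4.3.3 with edgeR 4.0.16: filterByExpr (17212 of 56923 genes kept), TMM, a robust quasi-likelihood fit on all 6 mice, and a two-sided test with Benjamini-Hochberg adjustment at 0.05 over all genes tested. CPM use TMM-scaled library sizes. For ratios between 2 genes, an exact permutation test over mice was used (20 splits, two-sided). Intervals of shares are Wilson intervals for counting error only, since reads carry no molecular identifiers. Positions, lengths, and promoters come from the GENCODE annotation and the GRCm39 genome (56236 identifiers matched), with alignments in Biopython 1.88. Mature microRNAs come from RefSeq, whose build differs and whose coordinates were not used.

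The members and gene lists were chosen with earlier results of these data known. Named genes are the 10 members, up to 2 genes of each gene list with the smallest unadjusted p and 2 with the highest mean CPM, the 5 genes most like *Myh6* and *Myh7*, and RNAs overlapping or hosted by the heavy chain genes. Not every such gene is given a value, and 1 is not reported here. *Cmya5*, *Ppp1r12a*, *Ppp1r12b*, *Nppa*, *Nppb*, *Rcan1*, *Myh3*, *Myh8*, and single marker genes are named besides, after their values were seen. No 2 libraries had identical counts, and replicates are separate mice. Alternatives were other scalings, DESeq2 1.42.0, other filters, removal of mitochondrially encoded genes, a replicate block, a gene length correction, and leaving out each mouse. The steps of the fit were run on simulated counts with known changes before use.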

Additional observations from a re-analysis of the deposited data

How the results depend on the processing

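None of the 10 genes passed the adjusted threshold in any of 16 alternatives per gene, and adjusted p-values lay between 0.376 and 0.997 in edgeR or DESeq2. *Myh6*, *Myh7*, *Myl2*, *Ttn*, *Myom1*, and *Mylk3* kept their sign in all of them. *Myl3* turned to -0.087 with library size only, -0.098 after the gene length correction, and -0.033 without mutant replicate 3. When mutant replicate 1 and WT replicate 3, with the highest and lowest mitochondrial share, were left out together (an alternative added after seeing the data), *Myh7b* turned to 0.10, *Mybpc3* to 0.038, and *Myom2* to 0.0023, and the median of the 10 genes moved from -0.25 to -0.0044. With single mice left out, this median ranged from -0.35 to -0.077, the latter without mutant replicate 1, and was -0.16 without WT replicate 3. Library size only shifted the median of all genes to -0.14, and relative to it the 10 genes stood at -0.22, beside -0.26 in the main analysis. The log2 ratio of *Mybpc3* to *Myh6* plus *Myh7* ranged from -0.060 to 0.31 and that of *Ttn* to *Myh6* from -0.17 to 0.45 with single mice left out, turning sign without WT replicate 1 and mutant replicate 1, respectively. The cause of these turns was not tested.

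The count of all genes past the threshold was 7 in the main analysis, 21 with library size only, 158 in DESeq2 (143 higher and 15 lower), 20 without a filter, 2 after the length correction, 1 without both named mice, and 2 to 4 with each mouse left out in turn (4 without WT replicate 1 or 2, 3 without WT replicate 3 or mutant replicate 3, and 2 without mutant replicate 1 or 2). With the replicate number as a block, the count was 1 and the median of the 10 genes was -0.27. Whether equal numbers mark paired mice is not given in the sources used here. Same-numbered deviations correlated at -0.0013, 0.022, and -0.057, and no WT mouse correlated best with its own number. With 3 mice per group these values cannot decide whether the mice are paired. For the paired ratio of *Myh7* to *Myh6* the difference was 0.11 as before, with p = 0.5 by an exact sign-flip permutation whose smallest possible p is 0.25.

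Levels per kilobase of 7 genes moved with the choice of length. Precision is limited by 3 mice per group, as the intervals of the fold changes show.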
